A study of Mus musculus with 6 samples.

Results

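Glycolysis and the pentose phosphate pathway were followed through 37 genes in bone marrow of anemic mice, 6 h after an injection of erythropoietin. The genes were taken by name: the glucose and lactate carriers, the enzymes from hexokinase to lactate dehydrogenase, the PFKFB and pyruvate dehydrogenase kinases that steer the flux, and the enzymes of the pentose phosphate branch. A probe whose accession maps to 1 of these symbols was found for 36 of them, and 35 were tested, among 14853 genes tested on the arrays. Pdk2 had no matched probe and was not analysed here. Eno2, the neuronal enolase, was matched by 2 probes, and neither was detected above background on any array.

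The samples were bone marrow cells flushed from the femurs of male ISAM mice of mixed strain, 10 weeks old, each on its own 1-colour Agilent array. Every mouse, control or treated, had the genotype Epo-/-::3.3K-Epo3'-Tg458: the endogenous erythropoietin gene is deleted, and an Epo transgene sustains the animal through development but leaves the adult short of the hormone and anemic. The treated arm (n = 3) received recombinant human erythropoietin (rHuEPO) intraperitoneally at 3000 U/kg, and the control arm (n = 3) joined 2 samples collected 6 h after phosphate-buffered saline (PBS) with 1 untreated sample. Whether replicates came from separate animals is not said in the labels, and p-values here cover the spread between these arrays, which may be technical.

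Glycolysis splits glucose into pyruvate and yields ATP and NADH without oxygen, and lactate dehydrogenase turns the pyruvate into lactate so that the NADH is used up. The pentose phosphate pathway branches off at glucose 6-phosphate, makes the NADPH that keeps glutathione reduced, and supplies ribose for nucleotides. Mature red cells have lost their mitochondria and live on glycolysis alone, and the precursors in the marrow switch to red cell forms of several of these enzymes as they mature. Neutrophils and their precursors, which are abundant in marrow, also rely on glycolysis. In whole marrow, fewer cells of a type and less RNA per cell cannot be told apart.

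Signals are given as log2 of the background-subtracted signal minus the log2 of that array's 75th percentile, so that 0 is the 75th percentile itself and a difference of 1 is 2-fold. Levels of different probes are not comparable. The 75th percentile lay between 220.7 and 264 units, no spot was saturated, and the share of gene spots detected above background was 48.6% to 50.5% in the control arm and 46.2% to 46.6% in the rHuEPO arm. The arrays lay on 2 slides: untreated and rHuEPO replicate 1 on slide 1, and the remaining 4 on slide 2. Of the 35 tested genes, 33 were well above background on all 6 arrays. The exceptions were Pklr, on 2 of 3 control and all 3 rHuEPO arrays, and Pfkfb2, on 2 of 3 arrays of each arm. The arrays carried the markers of marrow: all 12 erythroid and all 13 neutrophil markers were above background. Of 8 skeletal muscle genes, Acta1, Ckm and Pvalb were not above background on any array. Atp2a1 and Mylpf were well above it on all 3 arrays of each arm.

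After rHuEPO, 2 of the 35 genes, Pklr and Hk1, read above all control arrays, a share (5.71%) near that of all genes (5.01%), and neither passed the test. The arms overlapped for the other 33. Among those tied to red cells in the paragraphs below, Bpgm (-0.22) and Aldoa (-0.13) lay below 0 and Pfkm (0.37) and G6pdx (0.18) above it. Pklr, the pyruvate kinase of red cells and liver, was 2.26 ± 0.40 higher on the log2 scale (limma standard error), or 4.80-fold (1.03, or 2.05-fold, with normexp background correction), and Hk1, the hexokinase of red cells and brain, 0.58 ± 0.19 higher, or 1.498-fold. The control mean of Pklr includes an array on which its probe was not well above background. The other 33 genes differed by -0.41 to 0.37, which is 0.755-fold to 1.29-fold.

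None of the 35 genes passed the test across all genes (limma, Benjamini-Hochberg adjusted p under 0.05), where 10 of 14853 genes, 0.0673%, passed, all of them higher. At an unadjusted p under 0.05 there were 2 of the 35 (Pklr and Hk1) beside 736 genes in all, 4.96%. The arms did not overlap for 2 of the 35, against 10.4% of all genes, and both were higher. The median difference over the 35 was -0.05, with 14 above 0 and 21 below (47.3% of all genes were above 0), and over all genes it was -0.015. With the arrays scaled to their median in place of the 75th percentile, 8 of the 21 were above 0. The median over the list was then 0.03, and that over all genes 0.06. For 29 of the 35 the 95% interval of the difference lay within 2-fold either way. It reached past 2-fold for Pklr, Hk1, Aldoc, Bpgm, Slc2a1 and Slc16a3, and standard errors ran from 0.18 to 0.48.

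**Figure D1:**
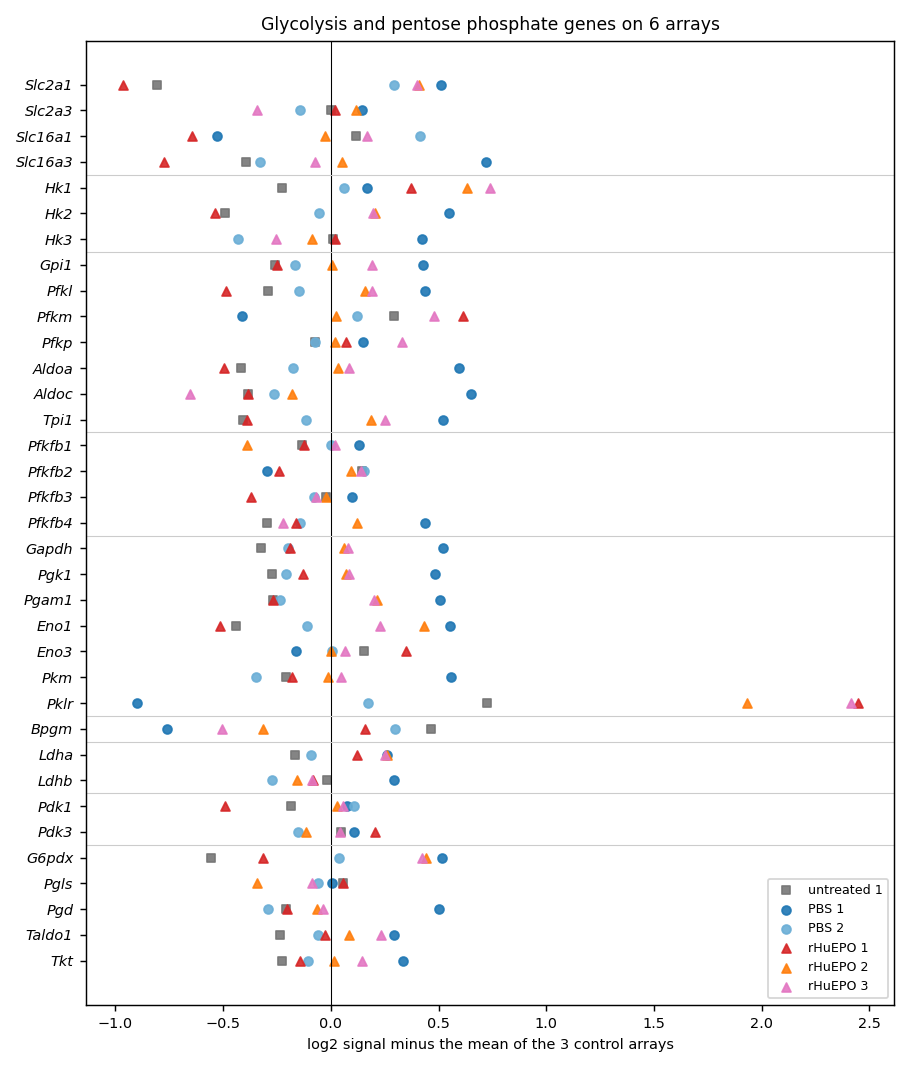
Signal of each tested gene on the 6 arrays, as log2 signal minus the mean of the 3 control arrays, ordered by role with grey lines between the roles. Squares and circles are the control arrays and triangles the rHuEPO arrays. Only Pklr and Hk1 have all 3 triangles to the right of all control points, and PBS replicate 1 (dark blue) is the rightmost point for 23 of the 35 genes.

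**Figure D2:**
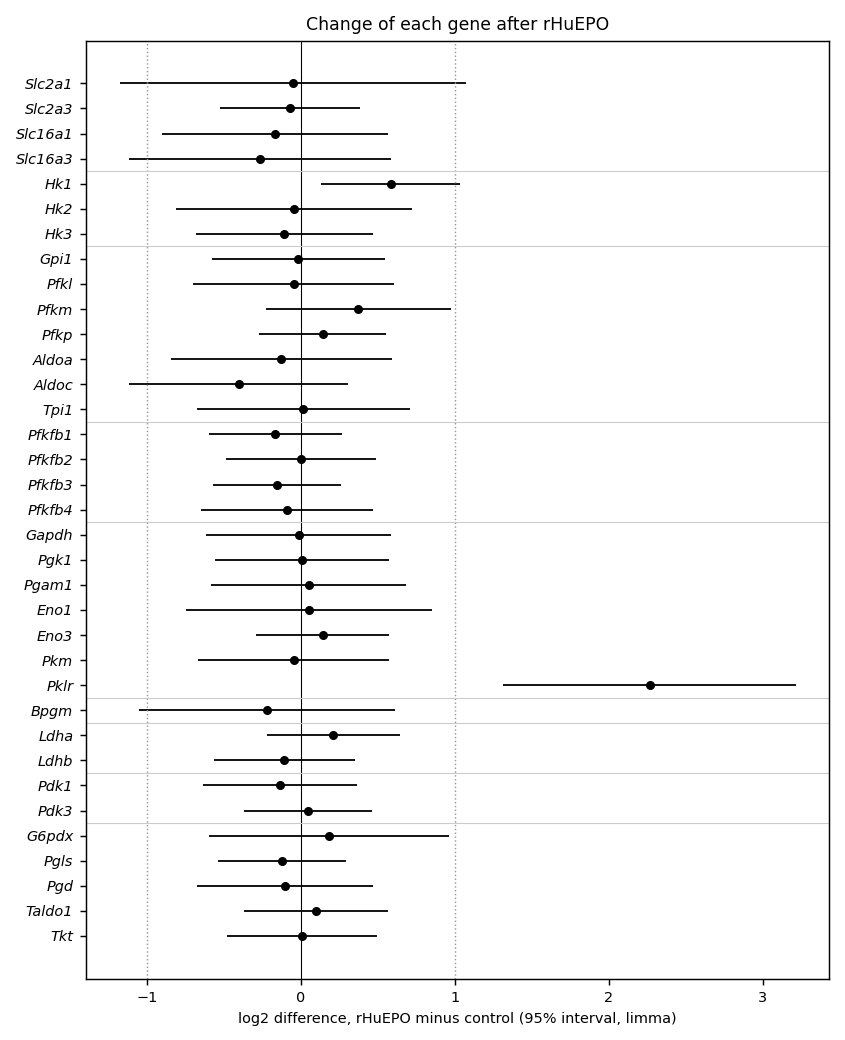
Difference of each tested gene between the arms, rHuEPO minus control on the log2 scale, with its 95% interval from limma (n = 3 arrays per arm). Dotted lines mark 2-fold lower and higher. The intervals of Pklr and Hk1 lie above 0, and those of the other 33 genes span it.

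Pyruvate kinase makes the last ATP-yielding step of glycolysis. In mammals Pklr encodes the forms of red cells and of liver, which start at separate promoters, and loss of the human gene causes a hemolytic anemia. The mouse Pklr locus lies on the forward strand of chromosome 3, and RefSeq (build GRCm38.p6) lists 2 starts for it. The 250 bases before each start are shown because this gene had the largest difference of the 35. Capitals mark AGATAA, a sequence that GATA factors can bind.
Pklr, upstream start, chr3:89135892-89136141 (+): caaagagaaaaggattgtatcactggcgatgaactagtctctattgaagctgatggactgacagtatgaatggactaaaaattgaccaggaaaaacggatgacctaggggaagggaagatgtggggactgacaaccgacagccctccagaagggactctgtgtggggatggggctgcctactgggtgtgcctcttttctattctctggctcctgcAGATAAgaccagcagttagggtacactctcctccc
Pklr, downstream start, chr3:89136373-89136622 (+): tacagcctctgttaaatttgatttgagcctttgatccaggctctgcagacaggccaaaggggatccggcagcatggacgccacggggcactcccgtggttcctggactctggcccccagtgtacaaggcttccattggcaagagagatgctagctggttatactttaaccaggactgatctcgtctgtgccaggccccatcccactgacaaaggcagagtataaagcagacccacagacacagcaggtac
AGATAA begins 35 bases before the upstream start and, searched on both strands, is not among the 250 bases before the downstream one. It is in 9.99% of the 32851 promoter windows of this length in the table, and in 7 of 57 windows of the listed genes (12.3%), so its presence does not set Pklr apart. From which start the array signal came was not tested.

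The Pklr probe read -2.48 on the untreated array, -4.10 and -3.03 on the PBS arrays and -0.76, -1.27 and -0.79 on the rHuEPO arrays. The 3 rHuEPO values lay close together and above all controls, while the controls spread over 1.62, the lowest being PBS replicate 1, where the probe was not well above background. The means were -3.20 ± 0.83 in the control arm and -0.94 ± 0.29 in the rHuEPO arm (SD, n = 3 each). The 95% interval of the difference was 1.32 to 3.21, and the unadjusted p by limma was 0.000718, adjusted over all genes to 0.291. The difference was 1.72 within slide 1 and 2.54 within slide 2, and with slide as a block the adjusted p was 0.184. Without PBS replicate 1, the array on which the probe was dim, the difference was 1.82 (adjusted p by limma 0.294).

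The negative control spots had a median of 3.74 to 4.03 scanner units on the control arrays and 4.73 to 5.51 on the rHuEPO arrays, higher on all of the latter. Of the 6 probes of the list that were well above background on no array, both Eno2 probes and a sixth Hk1 probe also read higher on all rHuEPO arrays and the 3 of Pfkfb2 did not, and none of them is read as expression. In the same units the Pklr probe gave 46.1 on the untreated array, 12.8 and 29.9 on the PBS arrays and 156, 106.9 and 130.4 on the rHuEPO arrays.

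Of 12 erythroid markers, 10 lay above 0, with a median difference of 0.37. Of these markers 3 were above all controls on every rHuEPO array, against 5.01% of all genes, and 0 passed the adjusted test by limma. Of 9 monocyte and macrophage markers, 7 lay above 0, with a median of 0.31, 1 was separated in that way and 0 passed. The part of either list in the Pklr value was not tested. Sptb, which encodes the spectrin of the red cell membrane skeleton, was 1.24 ± 0.21 higher, and Rhag, a red cell membrane channel, 0.86 ± 0.22. Neither passed the adjusted test by limma (0.260 and 0.625). The mean log2 signal of the list was 3.75 to 4.34 on the control arrays and 4.35 to 4.66 on the rHuEPO arrays. Its summed signal, carried mostly by globin, was 2088 to 2383 and 2079 to 2450 in units of the 75th percentile.

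Hexokinase traps glucose in the cell as glucose 6-phosphate. Hk1 is the housekeeping form and the form of red cells, Hk2 the inducible form of muscle and growing cells, and Hk3 is found mainly in white blood cells. Hk1 lies on the reverse strand of chromosome 10, again with 2 starts in RefSeq (GRCm38.p6). The windows are shown because Hk1 was the other gene whose arms did not overlap. Capitals mark CCACACCC, a CACCC box of the kind that the erythroid factor KLF1 can bind, or its reverse complement.
Hk1, upstream start, chr10:62379909-62380158 (-): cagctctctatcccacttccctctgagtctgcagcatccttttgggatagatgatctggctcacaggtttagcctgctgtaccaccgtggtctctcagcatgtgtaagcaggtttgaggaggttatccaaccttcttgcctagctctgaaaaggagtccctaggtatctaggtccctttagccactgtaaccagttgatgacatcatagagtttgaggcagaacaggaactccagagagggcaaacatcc
Hk1, downstream start, chr10:62340422-62340671 (-): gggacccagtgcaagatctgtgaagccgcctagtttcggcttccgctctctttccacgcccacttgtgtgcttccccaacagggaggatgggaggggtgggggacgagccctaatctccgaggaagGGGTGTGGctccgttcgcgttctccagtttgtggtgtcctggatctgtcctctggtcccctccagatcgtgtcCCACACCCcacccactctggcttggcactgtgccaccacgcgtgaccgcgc
The box begins 124 and 51 bases before the downstream start, and the upstream window holds none on either strand. CCACACCC or its reverse complement is in 3.2% of the 32851 windows and in 4 of 57 windows of the listed genes (7.02%), those of Aldoa, Hk1, Pdk1 and Pfkm. Other motifs sought included GCGTG, which hypoxia-inducible factors can bind. On either strand it begins 196, 15 and 12 bases before the downstream start. It is in 28.2% of all windows and 50.9% of those of the listed genes. Binding of any factor was not tested.

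The brightest Hk1 probe read 5.39 on the untreated array, 5.78 and 5.67 on the PBS arrays and 5.98, 6.24 and 6.35 on the rHuEPO arrays. The lowest rHuEPO array lay 0.21 above the highest control. The difference of 0.58 had a 95% interval of 0.13 to 1.03, an unadjusted p of 0.0183 and an adjusted p of 0.855 by limma. Within the slides it was 0.60 and 0.57, and with slide as a block the adjusted p was 0.261. Against the PBS arrays alone it was 0.47, with an adjusted p of 1.00.

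Hk1 was the gene of the list with the most probes. It had 5 tested probes, and on each the rHuEPO arrays were above all controls. These probes differed by 0.44 to 0.67. The second probe, for example, read 0.66 on the untreated array, 0.46 and 0.43 on the PBS arrays and 1.33, 1.04 and 1.19 on the rHuEPO arrays. Probes of 1 gene on the same arrays are not replicates. Of 13 genes with at least 5 tested probes, Hk1 was the only gene (7.69%) with all of them separated upwards, and 0 had all separated downwards. The other hexokinases showed no such gap: Hk2 differed by -0.05 ± 0.33 and Hk3 by -0.11 ± 0.24, with overlapping arms.

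**Figure D3:**
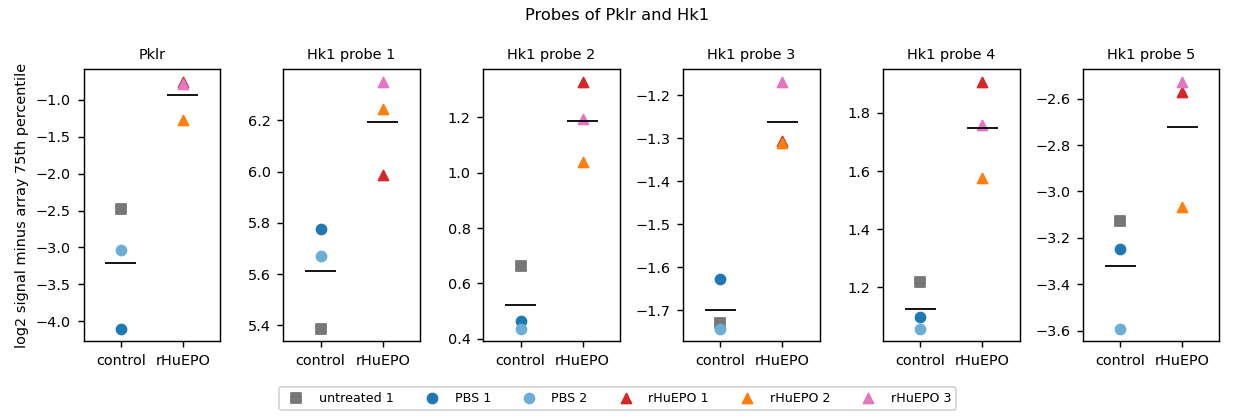
The Pklr probe and the 5 tested Hk1 probes on the 6 arrays, as log2 signal minus the array's 75th percentile, with the axis of each panel set to its own probe. Bars are the means of 3 arrays. In every panel the 3 rHuEPO arrays (triangles) lie above the 3 control arrays.

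The carriers bring glucose in and take lactate out. All 4 lay below 0, with a median difference of -0.12, although Slc2a1 and Slc2a3 were at 0.02 and 0.0048 with median scaling. Slc16a3, the lactate exporter MCT4 of glycolytic cells, read 5.75 on the untreated array, 6.87 and 5.82 on the PBS arrays and 5.37, 6.20 and 6.07 on the rHuEPO arrays. PBS replicate 1 was the high value and rHuEPO replicate 1 the low one, and the arms overlapped, for a difference of -0.26 ± 0.36. Slc16a1, the transporter MCT1 that carries lactate either way, read 2.79 on the untreated array, 2.14 and 3.08 on the PBS arrays and 2.03, 2.64 and 2.83 on the rHuEPO arrays. Its arms also overlapped (-0.17 ± 0.31), and the difference was -0.76 within slide 1 and 0.13 within slide 2. The glucose transporters differed by -0.05 ± 0.48 for Slc2a1 (GLUT1) and -0.07 ± 0.19 for Slc2a3 (GLUT3). For Slc2a1 that standard error was the widest of the 35, and its values sorted by slide, as described further on.

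The upper enzymes turn glucose 6-phosphate into triose phosphates, with phosphofructokinase as the committed step. They had a median difference of -0.02, 3 above 0 and 4 below, a count that moved with the scaling for Tpi1, Gpi1 and Pfkl. Pfkm, the muscle subunit, which human red cells also use, read 2.51 on the untreated array, 1.80 and 2.34 on the PBS arrays and 2.83, 2.24 and 2.70 on the rHuEPO arrays. The rHuEPO arrays overlapped the untreated one, with PBS replicate 1 the lowest, and the difference of 0.37 ± 0.26 was the third by p (0.188, adjusted 1.00). It was 0.32 within slide 1 and 0.40 within slide 2. Pfkp, the platelet-type subunit, read -0.10 on the untreated array, 0.12 and -0.11 on the PBS arrays and 0.04, -0.01 and 0.30 on the rHuEPO arrays. Only rHuEPO replicate 3 lay above all controls (0.14 ± 0.18). Pfkl, the liver-type subunit, differed by -0.05 ± 0.28.

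Aldoc, the brain-type aldolase, read -0.84 on the untreated array, 0.19 and -0.72 on the PBS arrays and -0.84, -0.64 and -1.11 on the rHuEPO arrays. PBS replicate 1 stood 0.83 above the next highest array, and the other 5 lay between -1.11 and -0.64. The difference of -0.41 ± 0.30, the lowest of the 35, was 0.00 within slide 1 and -0.61 within slide 2, and without PBS replicate 1 it was -0.08. Aldoa, the main aldolase of muscle and red cells, differed by -0.13 ± 0.31, Gpi1, which isomerises glucose 6-phosphate, by -0.02 ± 0.24, and Tpi1, which interconverts the triose phosphates, by 0.02 ± 0.30.

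The PFKFB enzymes set the level of fructose 2,6-bisphosphate, the strongest activator of phosphofructokinase. All 4 lay below 0, with a median of -0.12, except that Pfkfb2 was above 0 with quantile or median scaling or normexp. Pfkfb1, the liver form, read -0.11 on the untreated array, 0.15 and 0.02 on the PBS arrays and -0.10, -0.37 and 0.04 on the rHuEPO arrays. Pfkfb3, the form with the highest ratio of kinase to phosphatase activity, read 3.33 on the untreated array, 3.46 and 3.28 on the PBS arrays and 2.98, 3.33 and 3.29 on the rHuEPO arrays. In both the arms overlapped: rHuEPO replicate 2 was the lowest for Pfkfb1 and rHuEPO replicate 1 for Pfkfb3, and the differences were -0.17 ± 0.18 and -0.15 ± 0.18. Pfkfb4 differed by -0.09 ± 0.24 and the dim Pfkfb2 by -0.0017.

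The lower enzymes, other than Pklr, lay within 0.14 of their controls. Gapdh, which reduces NAD, differed by -0.01 ± 0.26, and Pgk1, which makes the first ATP, by 0.01 ± 0.24. Each has a second tested probe that differed in the opposite direction, by 0.05 and -0.03. Pgam1, the mutase, differed by 0.05 ± 0.27, Eno1, the general enolase, by 0.05 ± 0.34, and Pkm, the pyruvate kinase of most tissues, by -0.05 ± 0.26. Eno3, the muscle enolase, read 1.47 on the untreated array, 1.16 and 1.33 on the PBS arrays and 1.67, 1.32 and 1.39 on the rHuEPO arrays. The arms overlapped, for a difference of 0.14 ± 0.18.

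Bpgm makes 2,3-bisphosphoglycerate, which lowers the oxygen affinity of hemoglobin, and is a red cell enzyme. It read 5.68 on the untreated array, 4.46 and 5.51 on the PBS arrays and 5.38, 4.90 and 4.71 on the rHuEPO arrays. The rHuEPO arrays all lay inside the control range, which was wide: PBS replicate 1 was 1.06 below PBS replicate 2. The difference was -0.22 ± 0.35, below 0 within both slides, and a second probe gave -0.10. Against the PBS arrays alone it was 0.01, and without PBS replicate 1 it was -0.60.

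Lactate dehydrogenase is a tetramer of Ldha subunits, typical of muscle, and Ldhb subunits, typical of heart. Ldha read 6.17 on the untreated array, 6.59 and 6.24 on the PBS arrays and 6.45, 6.59 and 6.59 on the rHuEPO arrays. PBS replicate 1 equalled the highest rHuEPO array to 2 decimals, and the other controls lay below all of them (0.21 ± 0.18). Ldhb read 3.32 on the untreated array, 3.63 and 3.06 on the PBS arrays and 3.26, 3.18 and 3.25 on the rHuEPO arrays. Its rHuEPO arrays lay within 0.08 of each other and inside the control range (-0.11 ± 0.20).

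The pyruvate dehydrogenase kinases hold pyruvate back from the mitochondria. Pdk1 read 0.65 on the untreated array, 0.91 and 0.95 on the PBS arrays and 0.35, 0.87 and 0.89 on the rHuEPO arrays. Both arrays of slide 1 were the lowest, the rHuEPO one lower, and the difference was -0.14 ± 0.21, with a second probe at 0.07. Pdk3 differed by 0.04 ± 0.18, while its second, dimmer probe differed by 0.53 ± 0.23 (p 0.0576 by limma over probes, not adjusted). Pdk1, Pgk1 and Gapdh were the 3 genes, of 12 with several tested probes, whose probes differed in sign.

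The pentose phosphate enzymes had a median difference of 0.01, 3 above 0 and 2 below, and Tkt was below 0 with quantile normalization and Pgd above it with normexp. G6pdx, the X-linked first enzyme, whose human counterpart is the most common site of red cell enzyme deficiency, read 5.89 on the untreated array, 6.96 and 6.49 on the PBS arrays and 6.13, 6.89 and 6.87 on the rHuEPO arrays. The 2 arrays of slide 1 were low and the arms overlapped (0.18 ± 0.33). Pgls, the lactonase that follows, read 3.85 on the untreated array, 3.79 and 3.73 on the PBS arrays and 3.85, 3.45 and 3.70 on the rHuEPO arrays. Only rHuEPO replicate 2 stood apart, below the rest (-0.12 ± 0.18). Pgd, the second NADPH-making step, differed by -0.10 ± 0.24, and the carbon-shuffling enzymes Taldo1 and Tkt by 0.10 ± 0.20 and 0.01 ± 0.21.

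Ratios of isoenzymes within an array do not depend on the factor by which an array is scaled. Of 24 pairs listed, 20 had both genes tested, and in 3 the rHuEPO and control arrays did not overlap. With 3 arrays against 3 the smallest two-sided p of an exact permutation test is 0.10, which these 3 pairs reached, for an adjusted p of 0.667 over the 20 pairs. All of the other 17 had an adjusted p of 1.00.

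The log2 ratio of Hk1 to Hk2 was 2.35 on the untreated array, 1.70 and 2.20 on the PBS arrays and 3.00, 2.52 and 2.63 on the rHuEPO arrays. All rHuEPO arrays were higher, by 0.63 on average, with 0.65 within slide 1 and 0.62 within slide 2, and the arms overlapped with the mean of all tested probes. Hk1 to Hk3 differed by 0.69, but PBS replicate 2 overlapped rHuEPO replicate 1. Pkm to Pklr was 7.22, 9.61 and 7.63 on the controls and 5.52, 6.21 and 5.79 on the rHuEPO arrays. It was lower on all of the latter, by 2.31 on average (-1.70 within slide 1 and -2.62 within slide 2). Ldha to Ldhb was 2.85, 2.96 and 3.18 on the controls and 3.197, 3.41 and 3.34 on the rHuEPO arrays. The gap between the arms was 0.02, for a mean difference of 0.32, and it closed with normexp background correction and with the mean of all probes. Hk1 to Hk2 and Pkm to Pklr share 1 gene each with the separated genes, so they are no independent evidence. A ratio shows unequal change of the 2 genes, not which of them changed.

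**Figure D4:**
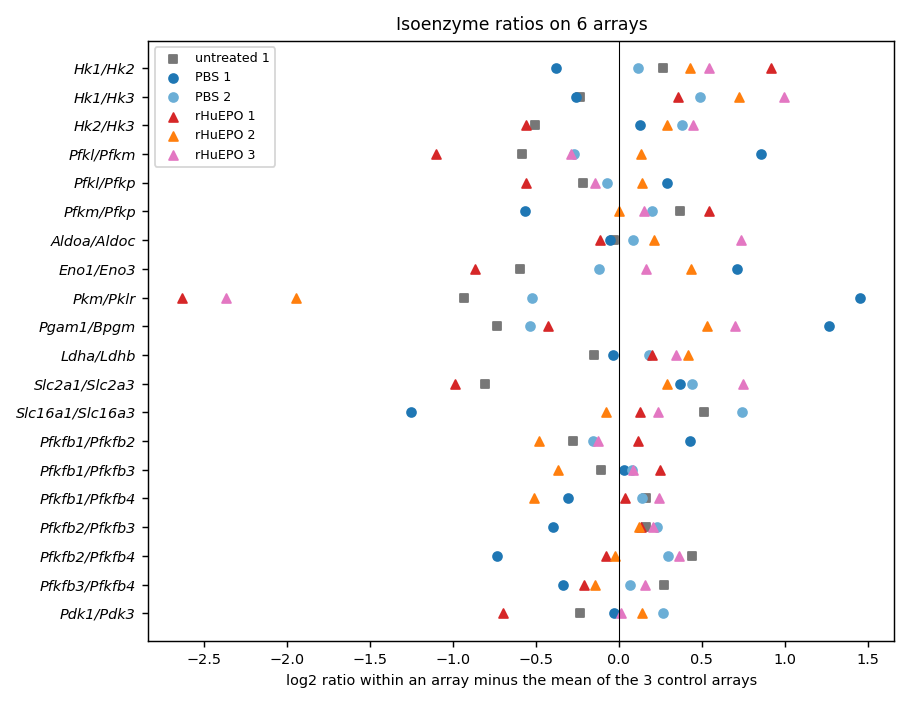
Within-array log2 ratio of each of the 20 isoenzyme pairs on the 6 arrays, minus the mean of the 3 control arrays. Squares and circles are controls and triangles rHuEPO arrays. Triangles and controls are apart for Hk1/Hk2, Pkm/Pklr and Ldha/Ldhb, with means 0.63, -2.31 and 0.32 from the controls.

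One control array stood apart for many genes of the list. PBS replicate 1 was the highest of the 6 arrays for 23 of the 35 genes (65.7%), against 25.7% of all genes. Relative to PBS replicate 2 it was higher for 28 of the 35 (80.0%), by a median of 0.44, against 53.4% and 0.03 for all genes. Pkm, Hk3, Pgd and Gapdh were 0.91, 0.85, 0.80 and 0.72 higher on it, and Pklr, Bpgm and Slc16a1 1.07, 1.06 and 0.94 lower. Without PBS replicate 1 the median rHuEPO difference of the list was 0.17, and that of all genes 0.02.

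Marker levels differed between the same arrays, and their part in these values was not tested. The summed neutrophil signal (13 of 13 markers) was 3088 on PBS replicate 1, 2244 and 2315 on the other controls and 2208 to 2921 on the rHuEPO arrays. The summed B cell signal (8 of 9 markers) was 50.1 on PBS replicate 1, 169 and 285 on the other controls and 103 to 129 on the rHuEPO arrays. Every erythroid marker other than Hbb-bt and Hba-a1 was lowest of the 6 arrays on PBS replicate 1. Slc4a1, for example, read 6.71 there and 7.20 and 7.33 on the other controls. The summed erythroid signal, carried mostly by globin, was 2088 on PBS replicate 1 and 2383 and 2279 on the other controls.

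rHuEPO against the 2 PBS arrays alone, in a fit with 3 groups, left the untreated sample out of the comparison. Both PBS arrays lay on slide 2 and rHuEPO replicate 1 on slide 1, so treatment and slide cannot be fully told apart in it. In the slide contrast described below, 26 of the 35 genes read higher on slide 2. None of the 35 genes passed, where 3 of 14853 (0.0202%) did by limma, and 9 lay above 0 (40.1% of all genes did) and 26 below. Pklr differed by 2.63 ± 0.36 (adjusted p 0.172), Pfkm by 0.52 ± 0.28, Hk1 by 0.47 ± 0.21, Aldoc by -0.60 ± 0.32 and Slc16a3 by -0.46 ± 0.39. The last 4 had an adjusted p of 1.00. These values share their rHuEPO and PBS arrays with the main comparison.

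The untreated array against the PBS arrays, the only view of handling within the control arm, had 1 array on 1 side, which is assumed to vary like the others. None of 14853 genes (0.00%) passed by limma, and 5.41% had an unadjusted p under 0.05, none of the 35 among them. The smallest p of the list were those of Pklr, 1.09 ± 0.48 higher on the untreated array (p 0.0600), Slc2a1, 1.21 ± 0.59 lower (p 0.0833), and G6pdx, 0.83 ± 0.41 lower (p 0.0867). The untreated array was also the only control on slide 1, so handling and slide cannot be told apart here.

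Of the contrasts fitted, slide was the only one in which genes of the list passed. With the arm as a covariate, 1577 of 14853 genes (10.6%) differed between slides at an adjusted p under 0.05 by limma, and 2 of the 35 did, a share below that of all genes. Slc2a1 was 1.29 ± 0.14 higher on slide 2, or 2.44-fold (adjusted p 0.0242), and G6pdx 0.79 ± 0.17 higher, or 1.73-fold (adjusted p 0.0440). Slc2a1 read 2.37 on the untreated array, 3.69 and 3.48 on the PBS arrays and 2.21, 3.59 and 3.58 on the rHuEPO arrays. The 2 arrays of slide 1 read 2.37 and 2.21, at least 1.10 below the 4 arrays of slide 2, whichever the arm.

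Hk2, Eno1 and Pdk1 came next, at 0.74, 0.75 and 0.40 higher on slide 2, with adjusted p of 0.0610, 0.0730 and 0.0970. Hk2 read 3.03 on the untreated array, 4.07 and 3.47 on the PBS arrays and 2.99, 3.73 and 3.72 on the rHuEPO arrays. Eno1 read 1.51 on the untreated array, 2.50 and 1.84 on the PBS arrays and 1.43, 2.38 and 2.18 on the rHuEPO arrays. For both, the arrays of slide 1 were the lowest of the 6. At an unadjusted p under 0.05 there were 9 of the 35, all higher on slide 2, against 22.1% of all genes in that direction. The count of 2 depended on processing and on single arrays: it was 7 with array median scaling or without PBS replicate 2, 3 without PBS replicate 1, 1 with quantile normalization, and 0 without any filter on dim probes or without the untreated array or any 1 of the rHuEPO arrays. What differed between the slides was not tested.

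**Figure D5:**
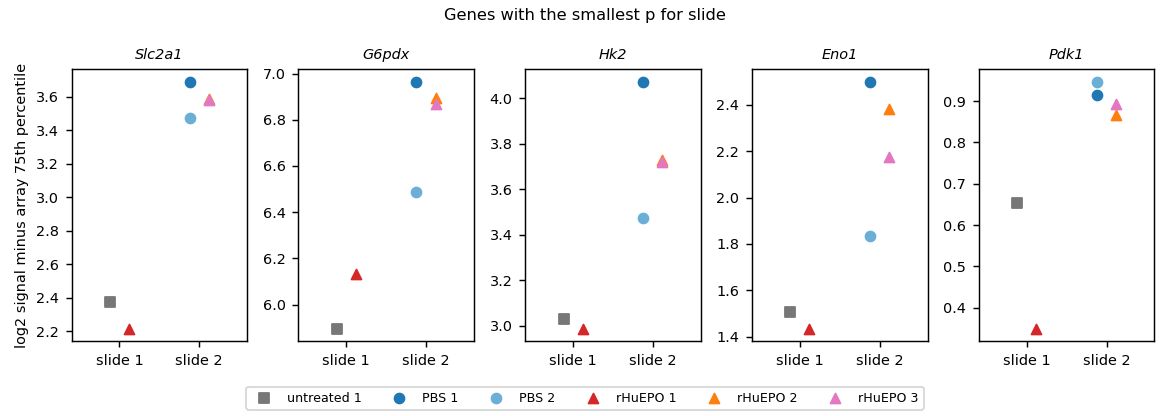
The 5 tested genes with the smallest p for slide, as log2 signal minus the array's 75th percentile, with slide 1 (untreated and rHuEPO replicate 1) on the left and slide 2 on the right of each panel. Squares and circles are controls and triangles rHuEPO arrays. For each gene both slide 1 arrays lie below all 4 slide 2 arrays, by at least 1.10 for Slc2a1.

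Because each slide held both arms, the rHuEPO difference could be read within each. It was above 0 for 23 of the 35 genes within slide 1 (1 array against 1), with a median of 0.01, and for 15 within slide 2 (2 arrays against 2), with a median of -0.03. The sign was the same on both slides for 17 of the 35, against 61.8% of all genes. On both slides 10 genes were above 0 (Pklr, Hk1, Pfkm, Ldha, Pfkp, Eno3, G6pdx, Taldo1, Pgam1 and Tpi1, the last at 0.015 and 0.016) and 7 below (Aldoa, Bpgm, Hk2, Ldhb, Slc16a3, Pfkfb3 and Pdk1).

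The neighbouring pathways were read in the same way. Of 91 genes of related lists, 87 were matched, 66 were tested and 0 passed the adjusted test by limma, with 27 above 0, 39 below and a median of -0.06. At an unadjusted p under 0.05 there were 2 higher and 1 lower, 3 of 66 or 4.55%, near the 4.96% of all genes. In 3 of the 66 every rHuEPO array was above every control array, and in 5 below, against 5.01% and 5.39% of all genes. Prps1, which makes phosphoribosyl pyrophosphate from the ribose 5-phosphate of the pentose phosphate pathway, read 3.25 on the untreated array, 3.09 and 3.49 on the PBS arrays and 3.82, 3.67 and 3.995 on the rHuEPO arrays. Bsg, the chaperone that takes MCT1 and MCT4 to the membrane, read 2.24, then 2.48 and 2.58, then 2.79, 2.80 and 2.97 on the same arrays in that order. In both, all rHuEPO arrays were above all controls, by 0.56 ± 0.19 and 0.42 ± 0.18 on average. Pgm2l1, which makes glucose 1,6-bisphosphate, was lower on all rHuEPO arrays, with a difference of -0.64 ± 0.20. Adjusted p by limma were 0.856, 0.983 and 0.842.

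Within the lists, the glycogen genes (14 tested, 4 above 0) had a median of -0.05 and the other pentose phosphate and NADPH genes (10 tested, 7 above 0) one of 0.08. Among the 10 genes of gluconeogenesis and glycerol phosphate, Pcx, the pyruvate carboxylase, differed by 0.50 ± 0.24 and the phosphoglycolate phosphatase Pgp by 0.58 ± 0.35, both with overlapping arms. Pck2, the mitochondrial phosphoenolpyruvate carboxykinase, was lower on all rHuEPO arrays, at -0.28 ± 0.17, and that list had 6 above 0, 4 below and a median of 0.02. The pyruvate dehydrogenase list (8 tested, 5 above 0) had a median of 0.18, with Dlat, its acetyltransferase subunit, at 0.28 ± 0.17 and higher on all rHuEPO arrays. Further carriers (8 tested, 2 above 0) had a median of -0.16, with the hexose transporter Slc2a8 at -0.45 ± 0.23 and the monocarboxylate transporter Slc16a7 at -0.51 ± 0.31. Of the remaining isoenzymes 4 were tested, all below 0.

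Many glycolytic genes are also targets of the hypoxia-inducible factors (HIF), so 12 HIF targets outside the pathway were set beside them. They had 3 above 0 and 9 below, with a median of -0.12, and 0 passed. In 3 of them every rHuEPO array was below every control array, against 5.39% of all genes. These were Ankrd37, an ankyrin repeat protein, at -0.79 ± 0.38, Kdm3a, a histone demethylase, at -0.29 ± 0.15, and, named after its values were seen, Car9, a carbonic anhydrase, at -0.18 ± 0.16. Kdm3a read 1.22, 1.14 and 1.15 on the controls and 0.86, 0.83 and 0.95 on the rHuEPO arrays, and Ddit4, an inhibitor of mTOR, differed by -0.61 ± 0.49 with overlapping arms. Within slide 1 (1 array against 1) Ddit4 differed by -1.81 and within slide 2 by -0.01. The same values were -1.45 and -0.46 for Ankrd37 and -0.36 and -0.25 for Kdm3a.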

How the data were processed

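Marrow RNA was amplified, labelled with Cy3 and put on 1-colour Agilent arrays, per the labels' protocols. Per the file headers, Agilent Feature Extraction 10.7.3.1 made the deposited spot intensity values, with background already subtracted in the processed signal, and flags for spots well above background, saturated or outlying. The authors' value table holds log2 values, with a scaling not given in the sources used here. Against log2 processed signals, each array set to its 75th percentile and every probe to its median over arrays, it had slopes of 0.9988 to 1.0008, which settles its direction. Its column medians were -0.103 (untreated), -0.0569 and -0.0976 (PBS), and 0.117, 0.0111 and 0.0867 (rHuEPO).

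Here the log2 processed signal of gene spots was set against the array's 75th percentile. Outlier spots, 1639 control spots and 17 probes lacking a usable value on an array were dropped, and spots of a probe were averaged. Of 41174 probes, 19590 were well above background on 3 or more arrays and were tested. RefSeq (GRCm38.p6) gave symbols to 26682 probes (64.8%) by unversioned accession, and the rest kept the files' identifiers. A gene took its brightest tested probe. Motifs were sought on both strands of RefSeq promoter windows.

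limma 3.58.1 in R 4.3.3 (lmFit, eBayes, two-sided, Benjamini-Hochberg over 14853 genes, threshold 0.05) was checked on simulated data. Isoenzyme ratios had exact permutation tests. All members are accounted for by role, with values per array for up to 16 of smallest unadjusted p in rHuEPO against control, and the 5 of smallest p in other comparisons. From each related list up to 3 genes of smallest p are named, and 1 result is not reported here. The members, lists, motifs and pairs were chosen with earlier results of these data known. The number of arrays limits the precision. Alternatives were quantile or array median scaling, normexp (offset 50), 2 other filters on dim probes, the deposited table, PBS alone as control, limma's trend and robust options, the mean of a gene's probes, a block for slide or for replicate number, and each array left out. Arrays correlated at 0.9636 to 0.9914, and all 6 were counted as separate samples.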

Additional observations from a re-analysis of the deposited data

How the results depend on the processing

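In 16 distinct alternatives (leaving out the untreated array is the same as PBS as the only control), 0 of the 35 members passed the adjusted test for rHuEPO against control, and 10 members (Aldoc, Eno3, Hk1, Ldha, Pfkfb1, Pfkfb3, Pfkm, Pfkp, Pgls and Pklr) kept the sign of their difference in every one. Pklr ranged from 1.03 with normexp, whose offset compresses dim signals, to 2.63 with PBS as the only control, and had an unadjusted limma p under 0.05 in 15 of the 15 in which it was tested. Hk1 ranged from 0.47 to 0.69 with such a p in 12 of 16. The genes called in all, 10, were 5 with the filter on all 6 arrays, 3 with PBS as the only control, 1 with no filter, 1 with the replicate number as a block and 1 to 6 with 1 array left out. The genes of the list that differed between slides, 2, were 1 with quantile normalization, 7 with array median scaling, 0 with no filter and 0 to 7 with 1 array left out. The separated isoenzyme ratios, 3, were 2 with normexp, with the mean of all probes and with the filter on all 6 arrays (which drops Pklr), and 3 to 5 with 1 array left out. A trend, slide or replicate term gives no other within-array ratio, so those fits have no value for the pairs. The deviations of PBS and rHuEPO arrays with the same replicate number correlated at -0.114. Both PBS arrays lay on slide 2, while rHuEPO replicates 1 and 2 lay on different slides. That correlation therefore cannot tell whether the number pairs the samples, which was not tested. The cause of the shifts below was not tested.

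Another 25 members changed sign in at least 1 alternative, all without a call. With quantile normalization the differences were -0.0306 for Tpi1, -0.033 for Pgk1, 0.0631 for Pfkfb2 and -0.0252 for Tkt. With array median scaling they were 0.028 for Hk2, 0.0581 for Gpi1, 0.0293 for Pfkl, 0.0606 for Gapdh, 0.0269 for Pkm, 0.0227 for Slc2a1, 0.00476 for Slc2a3 and 0.0738 for Pfkfb2. With normexp they were 0.00403 for Gapdh, 0.0559 for Pfkfb2, -0.00121 for Pdk3 and 0.00408 for Pgd. In that alternative, 11 probes of PBS replicate 2 with a local background above their signal took the array's median background, a step chosen after seeing the data. With PBS as the only control they were -0.19 for Tpi1, -0.13 for Pgk1, -0.0863 for Pgam1, -0.17 for Eno1, 0.0117 for Bpgm, 0.0695 for Pfkfb2, -0.0945 for G6pdx, -0.0195 for Taldo1 and -0.11 for Tkt. With the mean of all probes they were 0.0182 for Gapdh and -0.0129 for Pgk1. With the replicate number as a block they were 0.035 for Hk3, -0.13 for Tpi1, -0.0154 for Pgk1, -0.0261 for Pgam1, -0.0927 for Eno1, 0.0799 for Slc2a3 and -0.0598 for Tkt.

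With 1 array left out, Tpi1 ranged from -0.19 to 0.28, Pgk1 from -0.13 to 0.25, Pgam1 from -0.0863 to 0.30, Eno1 from -0.17 to 0.33, Bpgm from -0.60 to 0.0117, Pfkfb2 from -0.15 to 0.12, G6pdx from -0.0945 to 0.44, Taldo1 from -0.0195 to 0.24 and Tkt from -0.11 to 0.17. Hk2 ranged from -0.29 to 0.23, Hk3 from -0.32 to 0.10, Gpi1 from -0.15 to 0.20, Pfkl from -0.19 to 0.17, Aldoa from -0.34 to 0.17, Gapdh from -0.18 to 0.25, Pkm from -0.22 to 0.23, Ldhb from -0.25 to 0.0366 and Slc2a1 from -0.46 to 0.40. Slc2a3 ranged from -0.16 to 0.0664, Slc16a3 from -0.46 to 0.0967, Pfkfb4 from -0.24 to 0.13, Pgd from -0.25 to 0.15, Slc16a1 from -0.43 to 0.0691, Pdk3 from -0.0367 to 0.12 and Pdk1 from -0.23 to 0.0412. Pklr was not tested with the filter on all 6 arrays.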
